A study of Mus musculus with 2 samples.

Results

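Arterial endothelial cells of the mouse dentate gyrus, the hippocampal region in which granule neurons are born throughout life, were picked from droplet single-cell RNA libraries by the counts of a few genes. They were 497 cells of 16636 barcodes that passed the filters, 274 in library 1 and 223 in library 2. Barcodes were kept with 1000 or more UMIs (unique molecular identifiers, which count captured messenger RNA molecules), 500 or more detected genes and no more than 20% mitochondrial UMIs. A barcode was called endothelial with at least 8 UMIs over Cldn5, Flt1, Pecam1 and Cdh5 and at most 2 UMIs in each of 5 gene pairs of pericytes, smooth muscle, microglia, astrocytes and oligodendrocytes. An endothelial cell was called arterial when Gkn3, Bmx, Sema3g, Efnb2 and Hey1 together had at least 3 UMIs and more than the venous genes Slc38a5, Nr2f2, Lcn2 and Vcam1. Of the other endothelial cells, 435 were venous-rule cells (at least 3 venous UMIs and more of these than arterial ones) and 718 were neither and are called the remaining endothelial cells, a mixture not named further.

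The mice were 30 days old. They were conditional knockouts (Nestin-Cre transgene, Phf2 flox/flox) and controls that carried the same Nestin-Cre transgene with Phf2+/+, 4 mice and 1 library per genotype. Nestin-Cre is known as a driver of recombination in neural stem and progenitor cells, and PHF2, a member of the KDM7 family, removes methyl groups from histone H3. Animals were perfused with saline and the tissue was dissociated enzymatically. The sources used here do not tie a library to a genotype, so the libraries are called library 1 and library 2, no values are compared between genotypes, and no test was made between libraries. Pairs of values below are always library 1 and then library 2.

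Arteries carry blood into the brain at high pressure, and their endothelium sits on an elastic lamina and a coat of smooth muscle. Arterial fate is known to depend on VEGF and Notch signalling through Dll4, Notch1 and the Hey factors, and on SoxF transcription factors. Brain endothelium changes gradually from artery through capillary to vein, with most transporters of the blood-brain barrier reported in capillaries and veins.

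The 2 libraries held 102897659 and 107266420 UMIs. Arterial cells had medians of 9711.5 and 9033 UMIs per cell, the remaining endothelial cells 6359.5 and 6076, and venous-rule cells 14728 and 11170. A cell with more UMIs passes a minimum of 3 more easily. Scrublet, a doublet caller, marked 226 (2.74%) and 252 (3.01%) of all kept barcodes and 2 and 9 of the arterial cells, which were kept. Of 23 barcode sequences kept in both libraries, none was arterial in both, and 2 arterial cells had a sequence that was also kept in the other library. Library 2 held 3 arterial barcodes with at least 50 UMIs over 8 choroid plexus markers, and 1 of them alone had 16315 of the 18190 Ttr UMIs of its library's arterial cells. The Ttr calls named below are also given without them, while marker sums include them.

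RNA of other cell types was measured by summed marker lists. The 9 listed smooth muscle markers summed to 257 and 293 CPM (UMIs per 1000000 UMIs of the summed cells) in arterial cells, 158 and 163 CPM in the remaining endothelial cells and 35108 and 33707 CPM in smooth muscle cells of the same libraries. Only Cnn1 of these was at 0 in arterial cells, in both libraries. It had 0 and 1 UMIs in the remaining cells, so it does not tell the sets apart. Mylk, the myosin light chain kinase that endothelium also uses, stood at 68.1 and 80 CPM in arterial cells. Against the remaining cells, Mylk and Cald1 of this list were called higher by the test described below, Cald1 by 0.47 ± 0.10 on the log2 scale. The 7 astrocyte markers summed to 1744 and 1928 CPM in arterial cells and 1496 and 1764 CPM in the remaining cells. In the remaining cells, 1196 and 1336 CPM of this came from Slco1c1, a transporter also listed below among the barrier genes. Gja1, a connexin of the astrocyte list, was called higher by 0.53 ± 0.11. DESeq2 called neither Cald1 nor Gja1. The 6 fibroblast markers summed to 2.1 and 19.7 CPM in arterial cells and 1.95 and 2.26 CPM in the remaining cells. In arterial cells, 4 and 2 of the 6 were at 0, Lum and Col1a1 among them. The 7 pericyte markers summed to 239.8 and 287 CPM in arterial cells and 313 and 337 CPM in the remaining cells, mostly from Rgs5. The oligodendrocyte list summed to 1254 and 1016 CPM in arterial and 676 and 550.0 CPM in the remaining cells, most of it from Mal, and the microglia list to 153 and 154 CPM in arterial and 157 and 191 CPM in the remaining cells. Neuron markers differed between the libraries, with 6.9 and 201 CPM in arterial and 64.8 and 98.5 CPM in the remaining cells. Choroid plexus markers summed to 78.8 and 8323 CPM in arterial and 77.2 and 410.4 CPM in the remaining cells. The 5 haemoglobin and red cell genes summed to 19553 and 8669 CPM in arterial cells, against 35734 and 20690.0 CPM in the remaining cells, and their part in the results below was not tested.

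Arterial cells made up 33.4% of the endothelial cells of library 1 (274 of 820, 95% Clopper-Pearson interval 30.2 to 36.8%) and 26.9% of those of library 2 (223 of 830, 23.9 to 30.0%). These intervals, and the Poisson intervals drawn in the plots, cover counting error only. The genes that chose the cells are described without a test, and their levels differ between the sets by construction. Gkn3 encodes a secreted gastrokine (chr6:87383256-87388935, minus strand, in GRCm38), and it stood at 88.7 and 171 CPM in arterial cells, 1.95 and 1.89 CPM in the remaining cells and 0 and 2.09 CPM in venous-rule cells. Bmx, a Tec-family tyrosine kinase (chrX:164192842-164258193, minus strand), stood at 68.7 and 93.1 CPM in arterial cells and 1.56 and 1.51 CPM in the remaining cells. Both were near 0 outside the arterial cells.

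The other 3 were spread more widely. Sema3g, a secreted semaphorin (chr14:31217860-31230352, plus strand), had 282 and 238 CPM in arterial cells, against 17.9 and 15.5 CPM in the remaining endothelial cells. Efnb2, the ephrin-B2 ligand whose receptor EphB4 marks veins (chr8:8617434-8661242, minus strand), had 115 and 145 CPM in arterial cells, against 18.7 and 24.1 CPM in the remaining endothelial cells. Hey1, a Notch-induced repressor (chr3:8663359-8667256, minus strand), had 269 and 263 CPM in arterial cells, against 49.2 and 46.4 CPM in the remaining endothelial cells. A Hey1 UMI was found in 88.7% and 85.2% of arterial cells, a Sema3g UMI in 78.1% and 74%, an Efnb2 UMI in 67.2% and 66.8%, a Bmx UMI in 29.6% and 35.9% and a Gkn3 UMI in 20.4% and 26%. In microglia, with medians of 8004 and 7090 UMIs, the same shares were 1.18% and 1.29% for Hey1, 0.223% and 0.228% for Sema3g, 5.72% and 3.5% for Efnb2, 0.0636% and 0% for Bmx and 0% and 0.114% for Gkn3. Most arterial cells thus had Hey1 and Sema3g UMIs, and a minority had Gkn3 or Bmx UMIs.

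Single rule genes were also followed in cells chosen by the other 4, with no test. The chosen endothelial cells had at least 3 UMIs over the other 4 genes and more than over the venous genes. Gkn3 was at 83.6 and 141 CPM in them, against 1.15 and 2.07 CPM in endothelial cells with none of the 4, venous-rule cells included. The chosen cells were deeper, with medians of 9775 and 9123.5 UMIs against 7268 and 6519.5. Hey1 was at 251 and 231 CPM in cells chosen by the other 4 genes, against 50.6 and 45.7 CPM in cells without them. All 5 genes were seen in 29 and 26 arterial cells, and 1 gene alone carried 30 and 22. The median arterial sum was 7 and 6 UMIs, and the highest was 70 and 78. It rose with depth: cells with a sum of 3 had medians of 7107 and 5901.5 UMIs, and cells with 20 or more had 20458 and 14824.5.

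**Figure D1:**
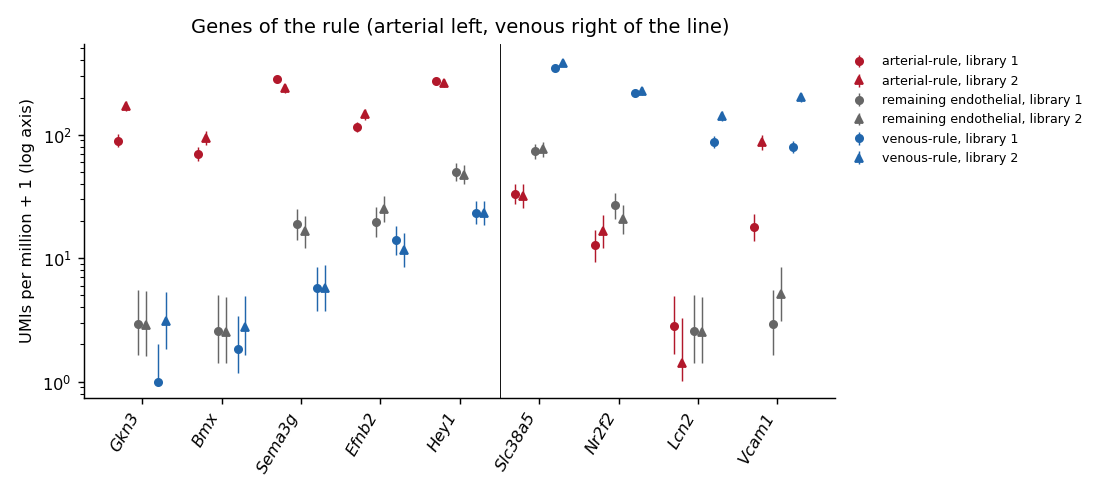
CPM (+ 1, log axis) of the 5 arterial and 4 venous genes of the rule in arterial-rule, remaining and venous-rule endothelial cells of library 1 (circles) and library 2 (triangles), with exact 95% Poisson intervals. All 5 arterial genes are highest in the arterial-rule cells; Vcam1 is also present there, at 16.8 and 85.7 CPM.

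Venous genes were not absent from the arterial cells. At least 3 venous UMIs were found in 19 and 39 of them. Among the arterial cells with Gkn3 or Bmx UMIs, 69.6% and 88.3% of the venous-rule UMIs came from Vcam1, an adhesion molecule, and among those without, 72.9% and 67.3% came from Slc38a5, a glutamine transporter. The 39 cells of library 2 with 3 or more venous UMIs had 4477 CPM of Mgp and 37.4 CPM of Nr2f2, while venous-rule cells with under 3 arterial UMIs had 60.7 CPM of Mgp and 232.5 CPM of Nr2f2 in that library. At the edge of the rule, the cells with an arterial sum of 3 and no venous UMI were 39 and 32, and those with a sum of 2 and no venous UMI were 33 and 35. Vegfc stood at 13.9 and 4.93 CPM just inside and 4.66 and 8.02 CPM just outside, and Mfsd2a at 374 and 340.5 CPM inside and 476 and 449 CPM outside. Stmn2 was lower just inside, at 55.4 and 34.5 CPM, than just outside, at 112 and 104 CPM. Gja4 was mixed, at 10.4 and 9.87 CPM inside and 4.66 and 20.1 CPM outside. Mgp stood at 34.7 and 78.9 CPM just inside and 0 and 36.1 CPM just outside. At the other edge, 9 and 7 arterial cells had 1 more arterial than venous UMI, and 6 and 5 remaining cells had 3 or more arterial UMIs and as many venous ones. Mgp stood at 0 and 1126 CPM just inside and 0 and 5979 CPM just outside, and Fbln5 at 0 and 153 CPM inside and 0 and 361 CPM outside. The library 2 values just outside came from 1 cell with 7 arterial and 7 venous UMIs, which held 431 Mgp UMIs of its 7143 UMIs.

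RBPJ, the DNA-binding partner of Notch, recognises a core TGGGAA, and SOX factors a core ACAAT, and both families act in arterial endothelium. The 250 bases before the annotated start of 4 genes are shown from RefSeq (GRCm38.p6), with these letters on either strand (TTCCCA and ATTGT on the other) in capitals. Bmx chose the cells, Gja4 and Fbln5 were higher in arterial cells and Car4 was lower. The motifs share no letters in these windows.
Bmx, chrX:164258194-164258443, minus strand: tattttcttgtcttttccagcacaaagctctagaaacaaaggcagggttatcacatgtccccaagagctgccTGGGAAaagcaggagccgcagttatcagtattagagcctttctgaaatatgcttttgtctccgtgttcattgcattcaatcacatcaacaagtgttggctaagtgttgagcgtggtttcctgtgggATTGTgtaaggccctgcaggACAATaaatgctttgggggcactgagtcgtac
Gja4, chr4:127314040-127314289, minus strand: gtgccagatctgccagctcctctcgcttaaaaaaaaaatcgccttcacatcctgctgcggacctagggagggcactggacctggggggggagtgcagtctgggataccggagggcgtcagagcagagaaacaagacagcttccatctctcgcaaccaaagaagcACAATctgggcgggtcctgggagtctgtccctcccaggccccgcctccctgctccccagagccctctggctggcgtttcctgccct
Fbln5, chr12:101819120-101819369, minus strand: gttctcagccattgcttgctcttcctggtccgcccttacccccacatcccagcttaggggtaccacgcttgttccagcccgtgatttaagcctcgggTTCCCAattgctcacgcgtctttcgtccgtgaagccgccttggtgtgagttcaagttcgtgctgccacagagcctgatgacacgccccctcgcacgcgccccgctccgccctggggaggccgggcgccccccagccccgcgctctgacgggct
Car4, chr11:84957504-84957753, plus strand: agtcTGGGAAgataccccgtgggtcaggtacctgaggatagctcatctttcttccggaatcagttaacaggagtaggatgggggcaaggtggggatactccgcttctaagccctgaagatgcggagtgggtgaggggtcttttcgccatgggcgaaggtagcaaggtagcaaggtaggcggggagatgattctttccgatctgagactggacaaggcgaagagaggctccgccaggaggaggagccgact
Bmx held 1 RBPJ core and 2 SOX cores, Gja4 held 1 SOX core, and Fbln5 and Car4 held 1 RBPJ core each. Over all 32851 windows of the same length, 21.6% held an RBPJ core and 27.7% a SOX core. Of the 14 genes named below as higher in arterial than in the remaining cells, 9 had entries with 12 windows, of which 2 held an RBPJ core and 0 a SOX core. Of the 14 named as lower, 11 had entries with 16 windows, of which 2 held an RBPJ core and 5 a SOX core. A match is a description of letters, not of a site in use.

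Against the remaining endothelial cells, arterial cells had more RNA of elastic fibre, matrix and vasomotor genes and less of several capillary genes. Counts were summed per library and set and compared by edgeR's quasi-likelihood test, blocked by library, at a Benjamini-Hochberg adjusted p under 0.05. Of 11007 genes tested, 581 (5.28%) were higher and 507 (4.61%) lower in arterial cells, with a median log2 fold change over all genes of -0.004. Higher genes were thus 53.4% of the calls. Scaled to total counts in place of TMM, 810 were higher and 395 lower (67.2% of the calls higher), with a median over all genes of 0.07. The 23 genes of the rule were left out of the tests. All the genes named from here on as higher or lower passed the threshold unless stated, and ± gives the standard error of a log2 fold change. With 2 libraries, these errors rest mostly on the spread shared by all genes. They do not measure the spread between mice, and a library also holds its genotype. Hbb-bt, H2-K1, H2-D1, Ctla2a and Hspa1b have near-identical copies whose reads may be shared, so their counts are uncertain.

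Genes of the elastic wall were among those that stood highest. Eln, which encodes elastin, had 79.4 and 257 CPM in arterial cells, against 5.85 and 15.1 CPM in the remaining endothelial cells, a log2 fold change of 3.87 ± 0.26 (edgeR adjusted p 2.9e-06). Fbln5, a fibulin that organises elastic fibres, had 46.5 and 153 CPM in arterial cells, against 6.63 and 11.7 CPM in the remaining endothelial cells (3.31 ± 0.21). Mgp, the matrix Gla protein that inhibits calcification and BMP, had 432 and 1566 CPM in arterial cells, against 45.6 and 199 CPM in the remaining endothelial cells (2.99 ± 0.09). In each gene both arterial libraries lay above both of the remaining cells, and the arterial value was higher in library 2. Smooth muscle cells of the same libraries had 1463 and 1533 CPM of Mgp and 655 and 610 CPM of Eln, but 0.417 and 2.5 CPM of Fbln5. The part of smooth muscle RNA in these levels was not tested. In library 2, that 1 cell at the edge of the rule held 431 of the 528 Mgp UMIs of the remaining cells, 26 of their 31 Fbln5 UMIs and 16 of their 40 Eln UMIs. Without the cells that had 3 or more arterial UMIs and as many venous ones, the remaining cells had 47.3 and 37.6 CPM of Mgp, 6.88 and 1.94 CPM of Fbln5 and 6.07 and 8.92 CPM of Eln. The log2 fold changes of the arterial cells were then 4.31 ± 0.35 for Mgp, 4.33 ± 0.45 for Fbln5 and 4.33 ± 0.30 for Eln. Remaining cells with no arterial UMI had 5.06 and 9.15 CPM of Mgp and 0 and 0.704 CPM of Fbln5. The UMIs of the arterial cells came from few of them too: 5 arterial cells held 46.0% and 54.8% of the Mgp UMIs. The same share was 50.6% and 55.2% for Eln and 67.1% and 61.3% for Fbln5. Arterial cells without Gkn3 or Bmx UMIs, described below, had 36.4 and 113 CPM of Mgp, 3.35 and 13.2 CPM of Fbln5 and 9.57 and 27.2 CPM of Eln. Their Mgp was below that of all remaining cells in both libraries, their Fbln5 was mixed and their Eln was above. The higher levels of these genes thus lay mostly in the arterial cells with Gkn3 or Bmx UMIs. Fbln2, another fibulin, had 148 and 171 CPM in arterial cells, against 18.3 and 20 CPM in the remaining endothelial cells (2.98 ± 0.13), with little difference between libraries.

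Of the 29 listed genes of elastic fibres and basement membrane, 26 passed the filter on low counts, 13 were higher, 4 were lower and 9 did not pass the threshold, with a median log2 fold change of 0.52. Col18a1, the basement membrane collagen that gives endostatin, had 49.2 and 62.4 CPM in arterial cells, against 2.73 and 3.4 CPM in the remaining endothelial cells (4.10 ± 0.26). Timp3, a metalloprotease inhibitor held in the matrix, had 2673 and 2226 CPM in arterial cells, against 854 and 768 CPM in the remaining endothelial cells (1.52 ± 0.07). Mmrn2, a multimerin of the endothelial matrix, had 188 and 193 CPM in arterial cells, against 68.3 and 77.3 CPM in the remaining endothelial cells (1.31 ± 0.10). All 3 were higher in both libraries, with no overlap between the sets. The 4 lower genes were Nid1, a linker of laminin to collagen IV (72 and 61.1 against 126 and 153 CPM), Sparcl1 (1097 and 998 against 1513 and 1552 CPM), Lama4 (30.9 and 33.6 against 46.8 and 57 CPM) and Lamb1 (2.7 and 9.02 against 15.2 and 20 CPM). These laminin, nidogen and Sparcl1 values were lower in arterial cells in each library. DESeq2 did not call Lama4 or Lamb1.

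Some genes of vessel tone were higher and some were not. Edn1, the vasoconstrictor endothelin 1, had 486 and 577 CPM in arterial cells, against 213 and 245 CPM in the remaining endothelial cells (1.14 ± 0.08). Edn3, another endothelin, had 161 and 165 CPM in arterial cells, against 21.8 and 31.3 CPM in the remaining endothelial cells (2.54 ± 0.14). Trpv4, a calcium channel that acts in endothelium-dependent dilation, had 56.1 and 45.9 CPM in arterial cells, against 8.19 and 6.79 CPM in the remaining endothelial cells (2.69 ± 0.22). Ace, which makes angiotensin II, was at 24.6 and 46.8 CPM in arterial cells and 5.85 and 3.02 CPM in the remaining cells (2.88 ± 0.36). Adm, which encodes the dilator adrenomedullin, was lower, with 7.79 and 13.1 CPM in arterial cells, against 20.7 and 47.2 CPM in the remaining endothelial cells (-1.75 ± 0.24). Edn1, Edn3, Trpv4 and Ace did not overlap between the sets. Of 18 listed genes of flow response and tone, 17 were tested: 5 rose, 2 fell and 10 missed the threshold. Klf2, the transcription factor induced by shear stress, was among these 10 with 3267 and 2181 CPM in arterial cells, against 3388 and 2257 CPM in the remaining endothelial cells, and so was Nos3, the endothelial nitric oxide synthase, with 192 and 157 CPM in arterial cells, against 154 and 138 CPM in the remaining endothelial cells. The channel genes Piezo1 (59.4 and 49.6 against 49.5 and 45.6 CPM) and Kcnj2 (13.2 and 25.4 against 7.41 and 15.8 CPM), arterial before remaining cells, did not pass either.

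Further genes named by size were of mixed function. Igfbp3, a binding protein for insulin-like growth factors, had 529.8 and 637 CPM in arterial cells, against 39.4 and 82.6 CPM in the remaining endothelial cells (3.20 ± 0.15). Alpl, tissue-nonspecific alkaline phosphatase, had 126 and 142 CPM in arterial cells, against 14.4 and 14.3 CPM in the remaining endothelial cells (3.14 ± 0.18). Tmem100, a membrane protein induced by BMP9 and BMP10 through Alk1, had 66.3 and 98 CPM in arterial cells, against 6.24 and 6.04 CPM in the remaining endothelial cells (3.67 ± 0.34). Each arterial value was several times the remaining one of its library. Cdh13, which encodes T-cadherin, had 54.9 and 84.5 CPM in arterial cells, against 9.36 and 7.54 CPM in the remaining endothelial cells (2.95 ± 0.27). Ccn3, a matricellular protein, had 56.7 and 64 CPM in arterial cells, against 7.8 and 7.17 CPM in the remaining endothelial cells (2.93 ± 0.21). Eps8l2, an actin regulator, had 81.5 and 76.7 CPM in arterial cells, against 5.07 and 7.92 CPM in the remaining endothelial cells (3.53 ± 0.20), and Egfl8 was higher by 2.96 ± 0.15 on the log2 scale. The lowest arterial value was above the highest remaining one in all of these. Of the 26 listed arterial genes outside the rule, 24 were tested and 23 were higher, with a median of 1.70. The gene lists were chosen with earlier results of these data known, so list counts are no independent support for the name of the cells. Gja5 and Hey2 had too few counts. Cytl1, a secreted cytokine-like protein, did not pass (edgeR adjusted p 0.062). It had 2.1 and 27.9 CPM in arterial cells, against 0 and 9.81 CPM in the remaining endothelial cells, and all 26 UMIs of the remaining cells lay in the 1 cell at the edge of the rule described above. Without it the remaining cells had none, and Cytl1 had too few counts to be tested.

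**Figure D2:**
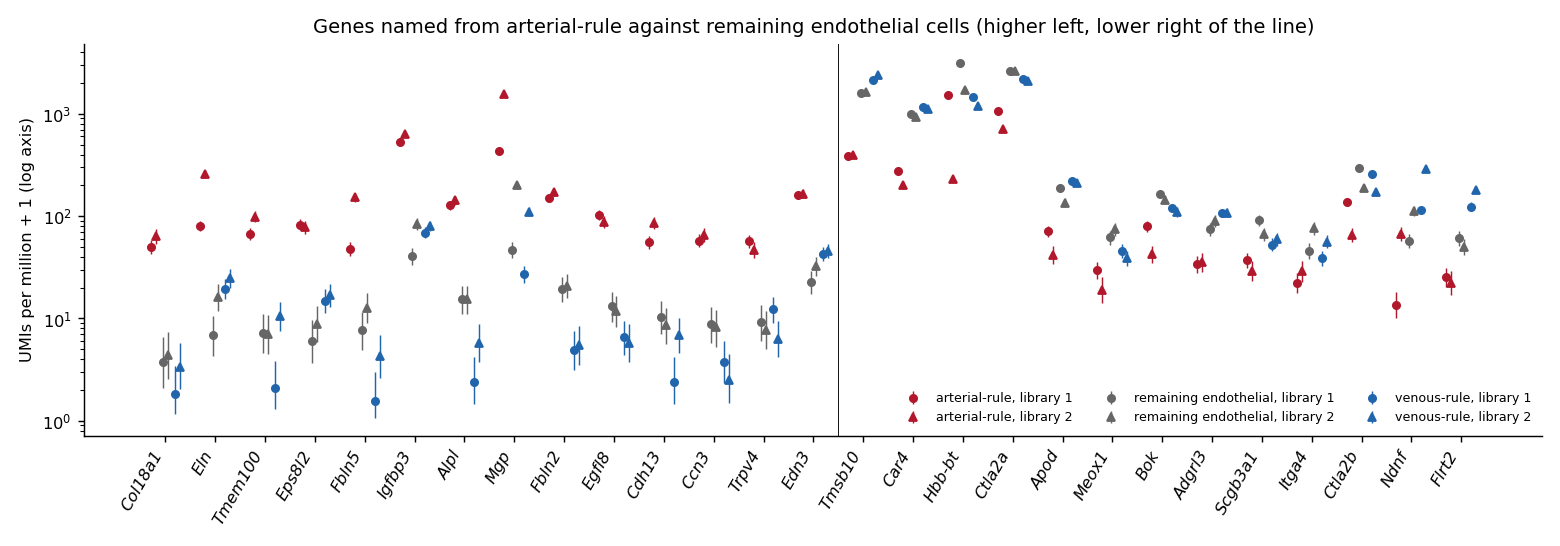
CPM (+ 1, log axis) of genes named by size, in arterial-rule, remaining and venous-rule endothelial cells of library 1 (circles) and library 2 (triangles), with exact 95% Poisson intervals. Left of the line both arterial values lie above both of the remaining cells, as for Igfbp3 at 529.8 and 637 CPM; right of it, other than for Ndnf, they lie below, as for Tmsb10 at 389 and 392 CPM.

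In the Notch pathway, 3 ligands and 2 receptors were higher and Hes1, a target, was lower. Jag1 had 95.3 and 93.1 CPM in arterial cells, against 50.3 and 29.8 CPM in the remaining endothelial cells (1.17 ± 0.16), and Jag2 had 242 and 198 CPM in arterial cells, against 130.3 and 117 CPM in the remaining endothelial cells (0.76 ± 0.09). Dll4, the ligand that acts in arterial fate, had 71.4 and 61.9 CPM in arterial cells, against 45.3 and 44.9 CPM in the remaining endothelial cells (0.50 ± 0.14, edgeR adjusted p 0.038). Notch1 had 491 and 357 CPM in arterial cells, against 312 and 241 CPM in the remaining endothelial cells (0.54 ± 0.07) and Notch4 154 and 121 against 118 and 87.5 CPM. These are values per library, and the arterial one was higher in each. Hes1 was lower with 199 and 306 CPM in arterial cells, against 376 and 584 CPM in the remaining endothelial cells, and so was the glycosyltransferase Mfng with 67.8 and 48.8 against 80.4 and 72.8 CPM. Of 22 listed genes, 19 were tested, and 5 were higher, 2 lower and 12 not past the threshold, among them Rbpj with 49.2 and 61.1 CPM in arterial cells, against 53.5 and 62.2 CPM in the remaining endothelial cells. The calls of Dll4 and Notch4 were lost without the arterial sum of library 1, and that of Mfng without that of library 2. That of Dll4 was also lost over cells of 5000 to 15000 UMIs, and DESeq2 called none of Dll4, Notch4 and Mfng.

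Among other signals, Tgfb2 had 195 and 377 CPM in arterial cells, against 52.3 and 118 CPM in the remaining endothelial cells (1.69 ± 0.10), and its receptor Tgfbr2 had 319 and 311 CPM in arterial cells, against 162 and 152 CPM in the remaining endothelial cells (0.93 ± 0.08). The inhibitory Smads were higher too, Smad6 with 122 and 81.6 CPM in arterial cells, against 40.2 and 23.8 CPM in the remaining endothelial cells (1.60 ± 0.14) and Smad7 with 437 and 400.4 against 286 and 286 CPM. Of 20 listed TGF-beta and BMP genes, 17 were tested: 6 rose, 2 fell and 9 missed the threshold, with a median of 0.15. Vegfc, a ligand of VEGF receptors, had 31.5 and 46.4 CPM in arterial cells, against 1.95 and 3.4 CPM in the remaining endothelial cells (3.75 ± 0.34), while the receptor gene Kdr was lower at 482 and 613 against 567 and 816 CPM (-0.40 ± 0.07). Apln, the peptide apelin, had 1.2 and 0 CPM in arterial cells, against 53.1 and 39.6 CPM in the remaining endothelial cells, with 0 UMIs in the arterial cells of library 2 (exact Poisson upper limit 1.51 CPM). Angpt2, an angiopoietin of sprouting vessels, was lower with 10.8 and 9.84 CPM in arterial cells, against 36.3 and 38.1 CPM in the remaining endothelial cells (-1.90 ± 0.19). Of 15 listed VEGF, angiopoietin, apelin and CXCL12 genes, 14 were tested: 2 rose, 5 fell and 7 missed the threshold.

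Of 21 listed guidance genes, 17 were tested: 4 rose, 4 fell and 9 missed the threshold. Unc5b, a netrin receptor, had 109 and 109.9 CPM in arterial cells, against 32 and 39.2 CPM in the remaining endothelial cells (1.54 ± 0.14), and Ntn4, a netrin of basement membranes, had 10.5 and 18.5 CPM in arterial cells, against 0.78 and 1.89 CPM in the remaining endothelial cells (3.33 ± 0.49). Nrp2, a coreceptor linked to veins and lymphatics, was lower with 17.1 and 22.6 CPM in arterial cells, against 37.8 and 40.7 CPM in the remaining endothelial cells (-1.08 ± 0.17). The netrin receptor and the netrin were thus higher and the semaphorin coreceptor lower. Of 21 listed endothelial transcription factors, 18 were tested: 6 rose and 1 fell. That one, Ets1, lost its call without the arterial sum of library 2 and with DESeq2. The SoxF genes Sox17 (536 and 509 against 350.4 and 341 CPM) and Sox18 (566 and 440.1 against 339 and 278 CPM) were higher, arterial before remaining cells, with log2 fold changes of 0.52 ± 0.07 and 0.63 ± 0.07. Gata2 stood at 362 and 296 against 194 and 147 CPM (0.88 ± 0.07), Prdm16 at 64.8 and 63.2 against 22.6 and 34 CPM (1.11 ± 0.17) and Epas1, a hypoxia-inducible factor, at 1789 and 1801 against 1223 and 1190.5 CPM (0.50 ± 0.06). Gja4, an arterial gap junction connexin, had 35.1 and 47.6 CPM in arterial cells, against 7.41 and 5.28 CPM in the remaining endothelial cells (2.61 ± 0.26). Smooth muscle cells had more of it, at 482 and 532 CPM, and the part of their RNA was not tested.

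The genes that stood lower in arterial cells were led by Tmsb10 and Car4. Car4, a carbonic anhydrase on the luminal surface of capillaries, had 272 and 202 CPM in arterial cells, against 991 and 935 CPM in the remaining endothelial cells, a log2 fold change of -2.10 ± 0.09 (edgeR adjusted p 1.4e-07). Tmsb10, a thymosin that binds actin monomers, had 389 and 392 CPM in arterial cells, against 1587 and 1621 CPM in the remaining endothelial cells (-2.11 ± 0.07). Ctla2a, a cysteine protease inhibitor, had 1055 and 715 CPM in arterial cells, against 2617 and 2607 CPM in the remaining endothelial cells (-1.65 ± 0.11). The arterial values of these 3 lay below both values of the remaining cells. Meox1, a homeobox factor, had a log2 fold change of -1.58 ± 0.20, Itga4, an integrin subunit, one of -1.33 ± 0.15 and Apod, an apolipoprotein, one of -1.58 ± 0.15. The other lower genes named by size, Bok, Adgrl3, Scgb3a1, Ctla2b, Ndnf and Flrt2, had log2 fold changes between -1.42 and -1.30. Hbb-bt, a beta-globin gene, was also lower, but its log2 fold change of -1.80 ± 0.38 was -0.96 without the arterial sum of library 2 and -3.13 without that of library 1, and DESeq2 did not call it.

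Among 16 listed capillary genes, all tested, 11 were lower, 1 (Slc9a3r2, a scaffold protein of ion exchangers) was higher and 4 missed the threshold, with a median log2 fold change of -0.40. Tfrc, the transferrin receptor, had 352 and 501 CPM in arterial cells, against 833 and 1037 CPM in the remaining endothelial cells (-1.22 ± 0.07). Slc16a1, a lactate transporter, had 144 and 158 CPM in arterial cells, against 259 and 324 CPM in the remaining endothelial cells (-1.02 ± 0.09). Slc7a5, a large neutral amino acid transporter, had 198 and 156 CPM in arterial cells, against 305 and 243 CPM in the remaining endothelial cells (-0.70 ± 0.08). Mfsd2a, the lysophospholipid transporter of the barrier, did not pass, with 536 and 418 CPM in arterial cells, against 500.2 and 455 CPM in the remaining endothelial cells (-0.08 ± 0.08), and neither did Cxcl12 with 3146 and 3644 CPM in arterial cells, against 2306 and 3545 CPM in the remaining endothelial cells (0.17 ± 0.09). Their sets overlapped across the libraries. Of 26 listed barrier genes, several of them also in the capillary list, 25 were tested: 9 fell, 3 (among them Slc2a1 and Abcc4) rose and 13 missed the threshold. Abcc4 lost its call without the arterial sum of library 2 and with DESeq2. Slc2a1, the glucose transporter, had 3968 and 2527 CPM in arterial cells, against 3244 and 2077 CPM in the remaining endothelial cells (0.21 ± 0.05), and its call was lost without the arterial sum of library 1. Of 16 listed venous genes outside the rule, 14 were tested against the remaining cells: 6 fell, 1 rose and 7 missed the threshold.

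Some genes of antigen presentation and interferon response were modestly higher. H2-K1 had 319 and 341 CPM in arterial cells, against 229 and 219 CPM in the remaining endothelial cells (0.48 ± 0.07), H2-D1 was higher by 0.41 ± 0.07, and Ifit1 had 117 and 115 CPM in arterial cells, against 75.3 and 65.3 CPM in the remaining endothelial cells (0.65 ± 0.10). Of 20 listed genes of adhesion, antigen presentation and interferon response, 16 were tested: 7 rose, 2 (Icam1 and Ackr3) fell and 7 missed the threshold. Of 20 listed early response and stress genes, 19 were tested. Fos (1678 and 1835 against 1073 and 1364 CPM), Egr1 (204 and 323 against 100.3 and 149 CPM) and Nr4a1 were higher, arterial before remaining cells, and 6 were lower, among them Hspa1b (462 and 123 against 643 and 245 CPM) and Jund (1742 and 1465 against 2227 and 1840.5 CPM). These genes respond to tissue dissociation, whose part was not tested. Of 16 Wnt genes, all tested, 3 (Sox17, Reck and Lrp6) were higher, and Apcdd1 (413 and 443 against 586 and 768 CPM) and Foxq1 were lower. The calls of Reck, Lrp6 and Foxq1 were lost without the arterial sum of library 2. Those of Lrp6 and Nr4a1 were lost without the remaining cells that had as many arterial as venous UMIs, and DESeq2 called none of Ifit1, Icam1, Ackr3, Nr4a1, Reck and Lrp6. Mal, listed with the oligodendrocyte markers, was higher with 1158 and 882 CPM in arterial cells, against 548 and 396 CPM in the remaining endothelial cells (1.04 ± 0.08).

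Phf2 (chr13:48801750-48871119, minus strand) had 26.7 and 27.9 CPM in arterial cells, against 26.1 and 26 CPM in the remaining endothelial cells (-0.01 ± 0.16, edgeR adjusted p 0.98). It stood at 34 and 30.1 CPM in venous-rule cells. None of the 10 KDM7 and H3K9 demethylase genes passed edgeR's threshold in any comparison, and in that with the remaining cells 1 had an unadjusted p under 0.05 and DESeq2 called 0. Against venous-rule cells 0 had an unadjusted p under 0.05, and within arterial cells 2, and DESeq2 called 0 in both. Against the remaining cells their log2 fold changes ran from -0.33 to 0.21. Which exons were deleted is not stated in these sources, so counts taken near the 3' end do not check the deletion.

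Against venous-rule cells, arterial cells had more Alpl, Unc5b and Stmn2 RNA and less Ptgs2, Il1r1 and Icam1 RNA. Of the 11007 genes, 689 (6.26%) were higher and 714 (6.49%) lower, with a median over all genes of -0.006. The arterial sums are the same as in the comparison above, so the comparisons are not independent. In fits of only the 2 sets compared, 522 genes were higher and 505 lower than in venous-rule cells, and 646 and 509 against the remaining cells, so which comparison called more genes turned with the fit. Ttr was called higher with the choroid-rich barcodes and reversed, with a call, without them. Alpl had 126 and 142 CPM in arterial cells, against 1.38 and 4.77 CPM in venous-rule cells (5.45 ± 0.23, edgeR adjusted p 3.5e-08). Unc5b had 109 and 109.9 CPM in arterial cells, against 10.5 and 7.75 CPM in venous-rule cells (3.56 ± 0.17). Msx1, a homeobox factor, had 67.8 and 73.4 CPM in arterial cells, against 4.69 and 9.24 CPM in venous-rule cells (3.35 ± 0.20). Stmn2, a microtubule regulator better known from neurons, had 112 and 192 CPM in arterial cells, against 12.2 and 25.3 CPM in venous-rule cells (3.01 ± 0.17), and Islr2, a membrane protein of axons, was higher by 3.65 ± 0.18. Cd24a, a surface glycoprotein, had 46.2 and 98 CPM in arterial cells, against 5.25 and 12.5 CPM in venous-rule cells. Arterial values exceeded venous-rule values in both libraries for all of these.

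The 714 lower genes included inflammatory and adhesion genes. Apln had 1.2 and 0 CPM in arterial cells, against 70.7 and 33.1 CPM in venous-rule cells, of which only 3.81% and 6.22% had an Apln UMI. Adgrg6, an adhesion G protein-coupled receptor, had 0.899 and 0.41 CPM in arterial cells, against 53 and 55.8 CPM in venous-rule cells. Ptgs2, the inducible cyclooxygenase, had 1.8 and 4.51 CPM in arterial cells, against 42.8 and 87.7 CPM in venous-rule cells (-4.39 ± 0.23). Il1r1, an interleukin-1 receptor, had 17.1 and 13.5 CPM in arterial cells, against 182 and 117 CPM in venous-rule cells (-3.30 ± 0.13). Icam1, a leukocyte adhesion molecule, had 21 and 46.4 CPM in arterial cells, against 235 and 398 CPM in venous-rule cells (-3.27 ± 0.18). The arterial values of all these lay below both venous-rule values. Rnase4 was at 11.4 and 10.3 against 159 and 162 CPM and Nrp2 at 17.1 and 22.6 against 97.8 and 88 CPM, arterial before venous-rule cells. Vwf, von Willebrand factor, had 121 and 158 CPM in arterial cells, against 477 and 529 CPM in venous-rule cells (-1.87 ± 0.08), while against the remaining cells, at 113 and 139 CPM, it did not pass (0.06 ± 0.09).

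Of 16 listed venous genes outside the rule, 14 were tested, 12 were lower in arterial than in venous-rule cells, 1 was higher and 1 did not pass, with a median of -2.62. The higher one, Plvap, stood at 0 and 44.3 CPM in arterial cells, against 0 and 6.56 CPM in venous-rule cells. It was thus at 0 in both sets of library 1, its call was lost without the arterial sum of library 2 and with DESeq2, and its log2 fold change was negative with a minimum of 5 arterial UMIs. All 24 tested arterial genes outside the rule were higher than in venous-rule cells, with a median of 2.50. Among them, Cytl1 rested on few cells. It had 7 and 68 UMIs in arterial cells, in 0.73% and 2.24% of them, and 0 and 1 UMIs in venous-rule cells. Of the capillary genes, 8 were lower, 5 higher and 3 missed the threshold. Cxcl12, a chemokine, was among the higher ones with 3146 and 3644 CPM in arterial cells, against 734 and 905 CPM in venous-rule cells (2.05 ± 0.09), and so was Mfsd2a with 536 and 418 CPM in arterial cells, against 406 and 378 CPM in venous-rule cells (0.27 ± 0.08), whose call was lost without the arterial sum of library 1 and with DESeq2. The 8 lower ones included Car4, with 272 and 202 CPM in arterial cells, against 1173 and 1107 CPM in venous-rule cells (-2.27 ± 0.09). Tfrc (352 and 501 against 899 and 1174 CPM) and Slc16a1 (144 and 158 against 358 and 374.5 CPM) were lower too. Car4, Tfrc and Slc16a1 each stood higher in venous-rule cells than in the remaining cells of the same library. The counts of higher and lower genes for each list are drawn in the plot of gene lists.

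**Figure D3:**
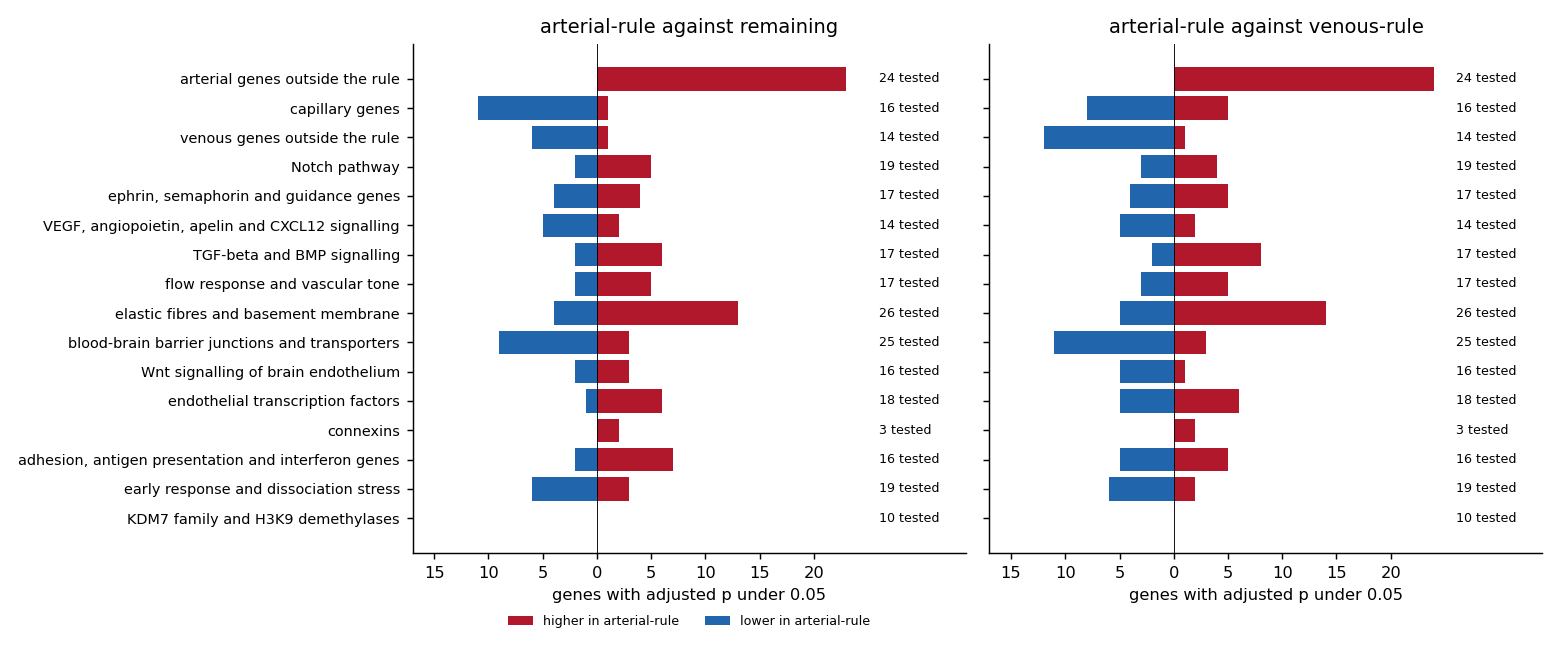
Number of genes of each list with an edgeR adjusted p under 0.05, higher (red, right) or lower (blue, left) in arterial-rule cells than in the remaining (left panel) or venous-rule cells (right panel), with the number tested. Against the remaining cells 5.28% of all genes were higher and 4.61% lower. The arterial list has 23 of 24 higher, and the KDM7 list has none in either direction. The lists were chosen with earlier results of these data known.

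Cells with a larger arterial sum had less Car4 and Tfrc RNA and more Alpl RNA. Over endothelial cells with under 3 venous UMIs, levels were followed by the arterial sum of the rule, in bins of 0, 1, 2, 3, 4 to 5, 6 to 9 and 10 or more UMIs. The sum chose the cells and was higher in deeper cells, with medians of 6172 and 5813 UMIs per cell at 0 and 14826 and 11956 at 10 or more, so no test was made. Car4 was at 1151 and 1021 CPM at 0, 556 and 352 CPM at 3 and 44.2 and 117 CPM at 10 or more. Tfrc was at 890.2 and 1012 CPM at 0, 534 and 592 CPM at 3 and 225 and 416 CPM at 10 or more. Alpl ran the other way, with 10.1 and 9.15 CPM at 0, 51 and 78.9 CPM at 3 and 191 and 149 CPM at 10 or more. The values of the bin of 3 lay between those of the end bins. Unc5b was at 21.7 and 26.7 CPM at 0, 49.8 and 79.9 CPM at 2 and 127 and 141 CPM at 10 or more, so it was above its lowest bin already under the threshold. Mgp was at 147 and 164 CPM at 6 to 9 and 778 and 1051 CPM at 10 or more, and its highest value in the other bins was 481 CPM at 3 in library 2. Spock2 and Cxcl12, also in the capillary list, were higher at 10 or more than at 0. Spock2, a matrix proteoglycan, was at 3212 and 3152 CPM at 0, 3715 and 3627 CPM at 3 and 3673 and 4117 CPM at 10 or more, and Cxcl12 at 1688 and 2889.8 CPM at 0, 4016 and 4374 CPM at 3 and 2624 and 3488 CPM at 10 or more. Mfsd2a stayed between 369.6 and 603 CPM in all bins.

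**Figure D4:**
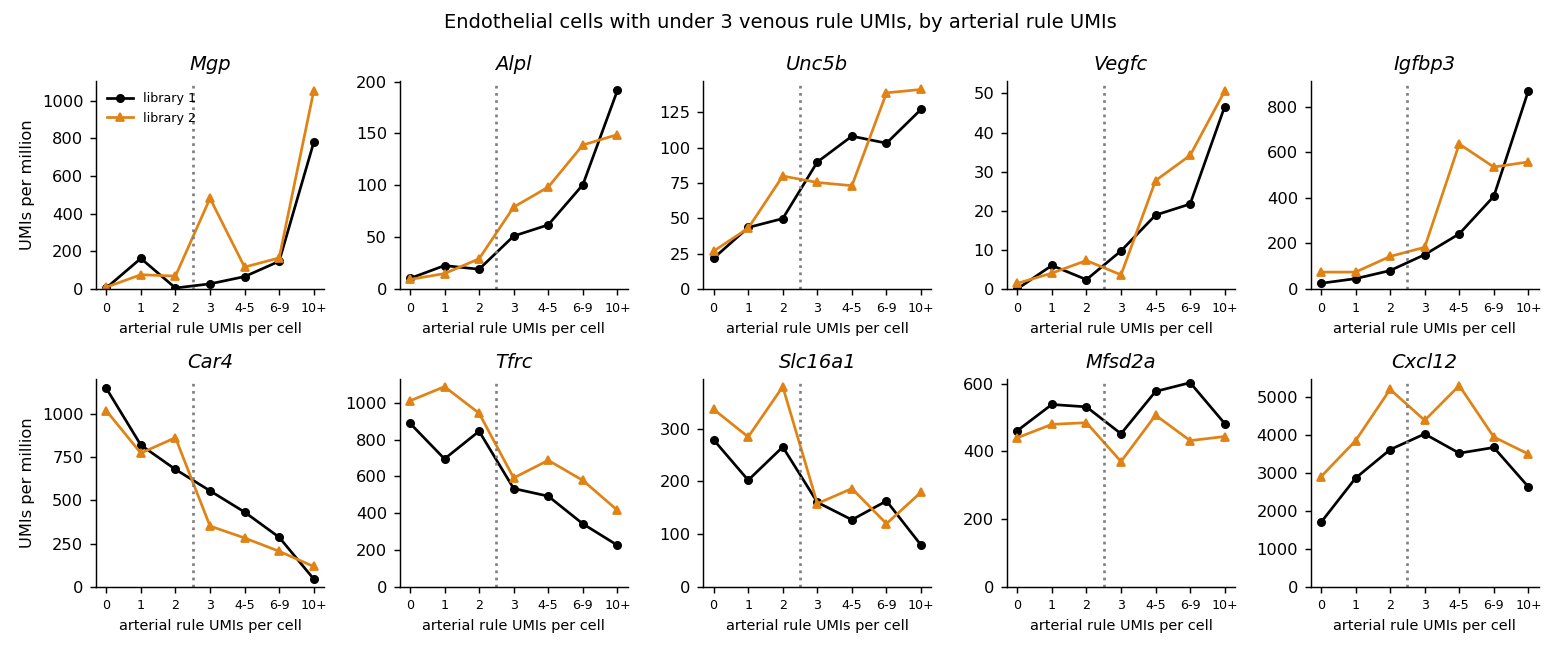
CPM of 10 genes over endothelial cells with under 3 venous-rule UMIs, by the number of arterial-rule UMIs per cell, in library 1 (black circles) and library 2 (orange triangles); the dotted line is the threshold of the rule. Alpl, Unc5b, Vegfc and Igfbp3 are higher in the bins to the right and Car4 and Tfrc lower, while Mfsd2a has no trend (between 369.6 and 603 CPM).

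The arterial cells were not uniform. Gkn3 or Bmx UMIs were found in 95 of the 274 cells of library 1 (34.7%, 29.0 to 40.6%) and 94 of the 223 of library 2 (42.2%, 35.6 to 48.9%). Cells with them were compared with cells without, in sums of 1245675 and 1075871 UMIs against 2089858 and 1361961. Both genes belong to the rule, so the split also followed the arterial sum. Its medians were 14 and 12 UMIs in cells with them and 5 and 5 in cells without. Differences by Gkn3 or Bmx could not be told apart from differences by that sum. Of 9033 genes tested, 401 (4.44%) were higher and 348 (3.85%) lower, with a median of -0.008. Higher genes were 53.5% of these calls, and 63.6% of the 105 and 60 made by DESeq2. This fit had 1 residual degree of freedom, and a cell with more UMIs is more likely to show a Gkn3 or Bmx UMI: cells of 5000 to 15000 UMIs gave 271 higher and 220 lower genes.

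Elastic wall genes were concentrated in the cells with Gkn3 or Bmx. Mgp had 1097 and 3405 CPM in cells with Gkn3 or Bmx UMIs, against 36.4 and 113 CPM in cells without, a log2 fold change of 4.89 ± 0.10 (edgeR adjusted p 2.6e-20). Eln had 197 and 548 CPM in cells with Gkn3 or Bmx UMIs, against 9.57 and 27.2 CPM in cells without (4.32 ± 0.15), and Fbln5 had 119 and 329 CPM in cells with Gkn3 or Bmx UMIs, against 3.35 and 13.2 CPM in cells without (4.77 ± 0.20). Both values with Gkn3 or Bmx lay above both values without. Nos1, the neuronal nitric oxide synthase, had 49 and 66 CPM in cells with Gkn3 or Bmx UMIs, against 2.39 and 4.41 CPM in cells without (4.07 ± 0.33). Pi16, a secreted peptidase inhibitor, had 74.7 and 122 CPM in cells with Gkn3 or Bmx UMIs, against 9.09 and 2.2 CPM in cells without (3.85 ± 0.31), and Gper1, a G protein-coupled oestrogen receptor, had 50.6 and 55.8 CPM in cells with Gkn3 or Bmx UMIs, against 8.13 and 3.67 CPM in cells without (3.03 ± 0.31). No value without Gkn3 or Bmx reached a value with them in these genes. S100a4, a calcium-binding protein, was higher by 3.93 ± 0.27, and Gcnt1, an enzyme of O-glycan branching, by 3.11 ± 0.32.

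As cells with Gkn3 or Bmx also had larger arterial sums, the counts of arterial and capillary genes describe the split and lend the rule no support. Of 23 tested arterial genes outside the rule, 21 were higher with Gkn3 or Bmx, with a median of 1.66. The others were Unc5b, with 110.0 and 134 CPM in cells with Gkn3 or Bmx UMIs, against 108 and 91 CPM in cells without (0.25 ± 0.14), and Dll4, with 73.9 and 67.9 CPM in cells with Gkn3 or Bmx UMIs, against 69.9 and 57.3 CPM in cells without (0.13 ± 0.16), which did not pass. Of the capillary genes, 15 were lower and 1 missed the threshold, with a median of -0.81. Car4 had 36.9 and 26 CPM in cells with Gkn3 or Bmx UMIs, against 412 and 341 CPM in cells without (-3.59 ± 0.14), and Mfsd2a had 362 and 306 CPM in cells with Gkn3 or Bmx UMIs, against 639.8 and 506 CPM in cells without (-0.80 ± 0.09). Cxcl12 had 1897 and 2474 CPM in cells with Gkn3 or Bmx UMIs, against 3891 and 4568 CPM in cells without (-0.98 ± 0.08). Mfsd2a and Cxcl12 passed no threshold between arterial and remaining cells. Tiam1, an activator of Rac, was lower with 41.7 and 47.4 CPM in cells with Gkn3 or Bmx UMIs, against 179.9 and 198 CPM in cells without (-2.10 ± 0.14), and Serpine2, a serine protease inhibitor, with 21.7 and 45.5 against 134 and 147 CPM (-2.12 ± 0.18).

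Venous genes split within the arterial cells. Vwf was higher with Gkn3 or Bmx, at 168 and 216 CPM in cells with Gkn3 or Bmx UMIs, against 93.3 and 112 CPM in cells without (0.87 ± 0.12), as were Ehd4 and Tmem252, while Tmsb10 (-2.08 ± 0.11), Icam1 (-1.48 ± 0.27) and Flrt2 (-1.86 ± 0.32) were lower. DESeq2 called none of Vwf, Ehd4, Tmem252, Icam1 and Flrt2. The major histocompatibility genes H2-D1 (827 and 859.8 against 561 and 459.6 CPM) and B2m (939 and 942 against 693 and 591 CPM) were higher, cells with before cells without. Smooth muscle markers summed to 356 and 379 CPM in cells with Gkn3 or Bmx and 197 and 225 CPM in cells without, and Mylk alone had 121 and 143 CPM with and 36.4 and 30.1 CPM without. Tagln had 7.22 and 7.44 CPM with and 0.478 and 0.734 CPM without. Fibroblast markers summed to 4.01 and 32.5 CPM with and 0.957 and 9.55 CPM without. The parts of smooth muscle and fibroblast RNA were not tested. Ttr, the choroid plexus transthyretin, was called lower (-3.70 ± 0.16), but without the 3 choroid-rich barcodes it did not pass (-0.26 ± 0.14, edgeR adjusted p 0.38), nor did it with DESeq2 in all cells. Nrgn, a neuronal gene also called lower, lost its call with Scrublet doublets left out.

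**Figure D5:**
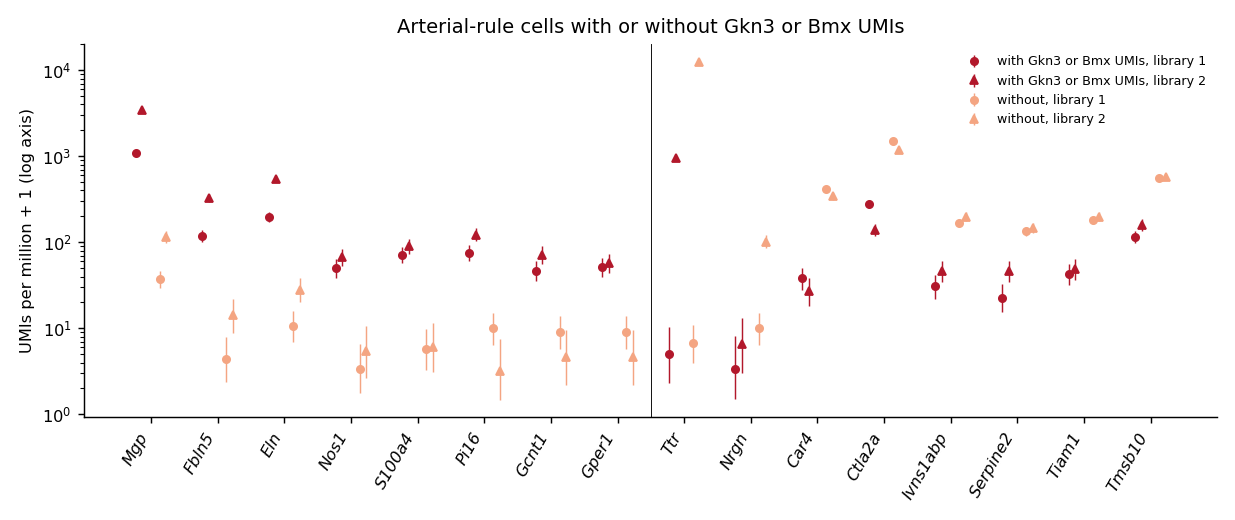
CPM (+ 1, log axis) of the 16 genes named by size, in arterial-rule cells with Gkn3 or Bmx UMIs (dark) and without (light), in library 1 (circles) and library 2 (triangles), with exact 95% Poisson intervals. Mgp is at 1097 and 3405 CPM with and 36.4 and 113 CPM without; Ttr stands apart in library 2, in the cells without.

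Between the libraries, the exact Poisson intervals of arterial cells lay apart for 150 of 355 listed or named genes, 69 higher in library 1 and 81 in library 2. No such count was made over all genes, so this one does not set the listed or named genes apart. The intervals cover counting error only, and genotype, mice and library cannot be told apart here. Among the 150 were Mgp at 432 and 1566 CPM, Eln at 79.4 and 257 CPM and Vcam1 at 16.8 and 85.7 CPM. Alpl, at 126 and 142 CPM in arterial cells, Edn3, at 161 and 165 CPM, and Phf2, at 26.7 and 27.9 CPM, had overlapping intervals.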

How the data were processed

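Cells of the dentate gyrus were profiled with the 10x Genomics 3' v3.1 droplet assay, per the labels. The deposited matrix holds whole-number UMI counts per gene and barcode, made by the authors with Cell Ranger 4.0.0 on mm10, with Scanpy 1.7.0 also named in the submitters' processing notes. It covers 13589760 barcodes and 32285 genes, unfiltered and not normalized, and no sample column was left unused (0). No source used here maps the barcode suffixes to genotypes.

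Barcodes were filtered and sets formed from raw counts. Scrublet (scanpy 1.11.5, expected rate 0.06) marked doublets. UMIs were summed per library and set, filtered with filterByExpr, scaled by TMM and compared with edgeR 4.0.16 (R 4.3.3) under a library block. The comparisons with the remaining and the venous-rule cells came from 1 fit of 6 sums, that within arterial cells from 4 sums. The same code was tested on simulated data with known changes. Of log2 changes of -1 it recovered 70% against the remaining cells, 74% against venous-rule cells and 75.5% within arterial cells. Of changes of 1 it recovered 88%, 88% and 90%. The simulated spread was smaller than the fitted one, with no library effect and no genes held by few cells, so these results may not carry over. DESeq2 1.42.0, other scalings and filters were alternatives. Genes named by size were the 14 (8 within arterial cells) with the largest change in each direction among those called, of the same sign in both libraries and with a mean of at least 50 CPM in the higher set, mitochondrial and clone-named genes aside. List members were named, up to 4 a list, by the smallest adjusted p, with up to 3 for their place in a pathway; further list members given as examples were chosen after their values were seen. The members and gene lists were chosen with earlier results of these data known. The block needs no check of pairing, since sums of a library come from the same mice and run. A few genes are not reported here.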

Additional observations from a re-analysis of the deposited data

How the results depend on the processing

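Each number of genes called higher and lower in arterial cells was recomputed with 1 choice changed at a time. Against the remaining cells (581 and 507), DESeq2 called 213 and 203, a fit without the library block 152 and 62, and cells thinned to 1000 UMIs, of which 4660 genes could be tested, 136 and 134. Leaving out Scrublet doublets gave 850 and 768. Leaving out the arterial sum of either library gave 602 to 676 higher and 620 to 646 lower. Against venous-rule cells (689 and 714), DESeq2 called 288 and 285, no block 284 and 203, and thinned cells 177 and 159, and leaving out an arterial sum gave 725 to 801 and 778 to 868. Within arterial cells (401 and 348), DESeq2 called 105 and 60, no block 88 and 30, thinned cells 60 and 48, and cells of 5000 to 15000 UMIs 220 lower. No count could be had there without a replicate, since no residual degrees of freedom were left. The other settings kept these counts within 1.5 times. The cause of the differences was not tested, except that thinning leaves fewer genes to test. The block marks sums of the same library, and without it the listed or named genes that lost their call were 87, 62 and 78 in the 3 comparisons. With DESeq2 they were 43, 42 and 58. With a minimum of 5 arterial UMIs the share of arterial cells was 23.2% and 17.8% of endothelial cells.

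The settings with cells of 5000 to 15000 UMIs, with arterial cells without the choroid-rich barcodes, and without remaining cells of 3 or more arterial and as many venous UMIs, were added after seeing the data. In the first, 768 of 1088 calls against the remaining cells, 942 of 1403 against venous-rule cells and 436 of 749 within arterial cells were kept; in the second, 1046, 1375 and 657; in the third, 1020 of the 1088. Some log2 fold changes near 0, and a few calls, changed sign. In thinned cells, against the remaining cells, Smad1 was at 0.074, Lrp6 at -0.024 and Nos3 at -0.25. Phf2 against the remaining cells was at 0.060 with total-count scaling, 0.0063 with a 10% mitochondrial limit, 0.033 without Scrublet doublets, 0.23 over cells of 5000 to 15000 UMIs 0.0019 without choroid-rich barcodes and 0.069 without the remaining cells named above. It ran from -0.064 to 0.048 without either arterial sum. Mfsd2a ran from -0.23 to 0.064 without either arterial sum, and was at 0.017 against remaining cells with no arterial UMI. Against these, Vwf was at -0.16 and Rbpj at 0.031, and Vwf was at -0.044 over cells of 5000 to 15000 UMIs. Against venous-rule cells, Plvap was at -3.40 with a minimum of 5 arterial UMIs, and in thinned cells Insr was at 0.040, Isg15 at -0.023 and Rbpj at 0.38. Rbpj was at 0.0040 without Scrublet doublets and 0.064 over cells of 5000 to 15000 UMIs, where Phf2 was at 0.30. Within arterial cells, Ttr was at 0.49 with a 10% mitochondrial limit. In thinned cells Tmem252 was at -0.34, Klf2 at -0.079 and Dll4 at -1.06, and over cells of 5000 to 15000 UMIs Klf2 was at -0.065 and Dll4 at -0.21. Of all 28 genes named by size in each of the comparisons with other endothelial cells, each kept its call without either arterial sum. Depth limits the low genes, whose few UMIs can come from single cells.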
